A study of Homo sapiens with 18 samples.

Results

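Day 4 of differentiation was set against expansion within clone 1D5 of HUDEP1, an immortalised human erythroid progenitor line. The 6 libraries of this clone, 3 from each condition, were taken by their labels out of 18 in the series, and no measured value entered the choice. In both groups 1D5 carries GATA1s, the short isoform of GATA1. Expansion cells grew in SFEM II with EPO at 3 U/mL, SCF at 50 ng/mL, dexamethasone at 1 μM and doxycycline at 1 μg/mL. Day 4 cells were in IMDM with 2% FBS, 3% AB serum, insulin at 10 μg/mL, heparin at 3 U/mL and holo-transferrin at 1 mg/mL, with the EPO, SCF and doxycycline amounts unchanged and no dexamethasone listed. The other 12 libraries are clone FL with full-length GATA1 and clone 1KI9, a different GATA1s clone, each in the same conditions, and they serve here for the shared estimate of spread and for differences between responses. 1D5 is 1 clone, so clone and genotype cannot be told apart, and day, medium and the separate scaling of the day 4 values cannot be told apart either. The labels do not tie replicates to independent cultures, and p-values here measure the spread between libraries, part of which may be technical.

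GATA1 is the zinc finger transcription factor that switches on globin, heme and red cell membrane genes and ends the proliferation of erythroid progenitors. GATA1s lacks the N-terminal activation domain and keeps both zinc fingers. During terminal maturation erythroblasts load globin and heme, remodel their membrane, stop ribosome production, leave the cell cycle and digest their mitochondria, while genes of the progenitor stage such as KIT are shut off.

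The deposited values are TPM in expansion and a scaled TPM-like signal at day 4, and the read depth is unknown. Here they were brought to a common scale by median-of-ratios factors, and "scaled value" means the deposited value divided so. Differences are day 4 minus expansion on log2(scaled value + 1), which understates changes of low genes. Among the 1D5 libraries, expansion replicate 3 stood apart in erythroid genes: globins made up 6.83% of its deposited total against 4.6% and 4.48% in the other expansion libraries, and 19.6%, 20.6% and 19.3% at day 4. The erythroid genes named below that it moved by over 0.2 on the log2 scale are given with and without it. All 10 erythroid progenitor markers were in the table and reached a value of 1 in at least 1 library. The summed level of the 1 lymphocyte marker in the table was 0 in expansion and at most 0.174 at day 4, that of the 2 stromal markers at most 0.592 and 3.82, and that of the 3 megakaryocyte markers at most 2.73 and 23.8. Markers of mast cells, basophils or eosinophils and of monocytes or neutrophils are given beside the genes they move with.

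In 1D5, 8753 of 11015 tested genes differed between day 4 and expansion, which is 79.5% (limma, Benjamini-Hochberg adjusted p under 0.05). Of these, 4368 were higher at day 4 (39.7% of tested genes) and 4385 lower (39.8%). A difference of at least 2-fold was reached by 1367 higher genes (12.4%) and 1194 lower genes (10.8%). In 4398 genes every day 4 library lay above every expansion library (39.9%), and in 4406 every one lay below (40%). With so many genes called, each count of a gene list below is read against these shares. The median difference of all tested genes was near 0 by construction of the scaling. It was -0.15 on the deposited values and 0.12 when libraries were scaled to their sum without globin and mitochondrial genes.

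Globin genes rose together. Of 11 genes, the globins and the alpha globin chaperone AHSP, 10 were called higher, none lower, and the list median was 1.64 on the log2 scale, against a median of -0.00143 for all tested genes. HBE1, the embryonic beta-like globin, had scaled values of 241, 188 and 394 in expansion and 17452, 20278 and 16814 at day 4. The groups were far apart, and HBE1 went from ranks 368, 499 and 233 among 13358 genes to ranks 7, 8 and 8. Its log2 difference was 6.11 (SE 0.38, limma adjusted p = 7.1e-11), and 6.4 without expansion replicate 3.

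HBG2, a fetal gamma globin and the highest gene of all 3 day 4 libraries, measured 19056, 18068 and 30529 in expansion and 80174, 97216 and 77583 at day 4. Its day 4 libraries all lay above expansion, with a difference of 1.95 (SE 0.25, limma adjusted p = 1.3e-06), or 2.19 without expansion replicate 3. The annotated spans of HBE1 and HBG2 overlap, the gamma globin copies are nearly identical, and a gene model spans HBG1 and HBG2, so how reads divide among them is uncertain. Summed over these models, gamma globin went from 26152, 25367 and 42346 to 111700, 134680 and 107200. HBA2 and HBA1, the alpha globins, differed by 1.85 and 1.64, and by 2.11 and 1.83 without expansion replicate 3. HBB, the adult beta globin, was low beside them, at 4.097, 7.002 and 15.1 in expansion and 31.3, 36.1 and 28.3 at day 4. Its groups did not overlap, and it rose by 1.91 (SE 0.35, limma adjusted p = 8.0e-05), or by 2.36 without expansion replicate 3.

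HBZ, the embryonic alpha-like globin, measured 55.3, 89.99 and 201 in expansion and 205, 243 and 203 at day 4. Expansion replicate 3 nearly reached the day 4 values, and the difference was 1.10 (SE 0.36, limma adjusted p = 0.0094). It was 1.6 without that library and 0.68, no longer called (limma adjusted p = 0.08), without expansion replicate 1. HBM, another alpha-like globin, overlapped between the groups at 76.5, 86.9 and 104 in expansion and 104, 119 and 102 at day 4 and was not called, with a difference of 0.29 (SE 0.21). HBM was called higher when only the clones compared entered the fit (limma adjusted p = 0.034). It was also called when only the 1D5 libraries set the scaling and the fit (0.26, limma adjusted p = 0.048). AHSP differed by 1.30, and by 1.53 without expansion replicate 3.

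**Figure D1:**
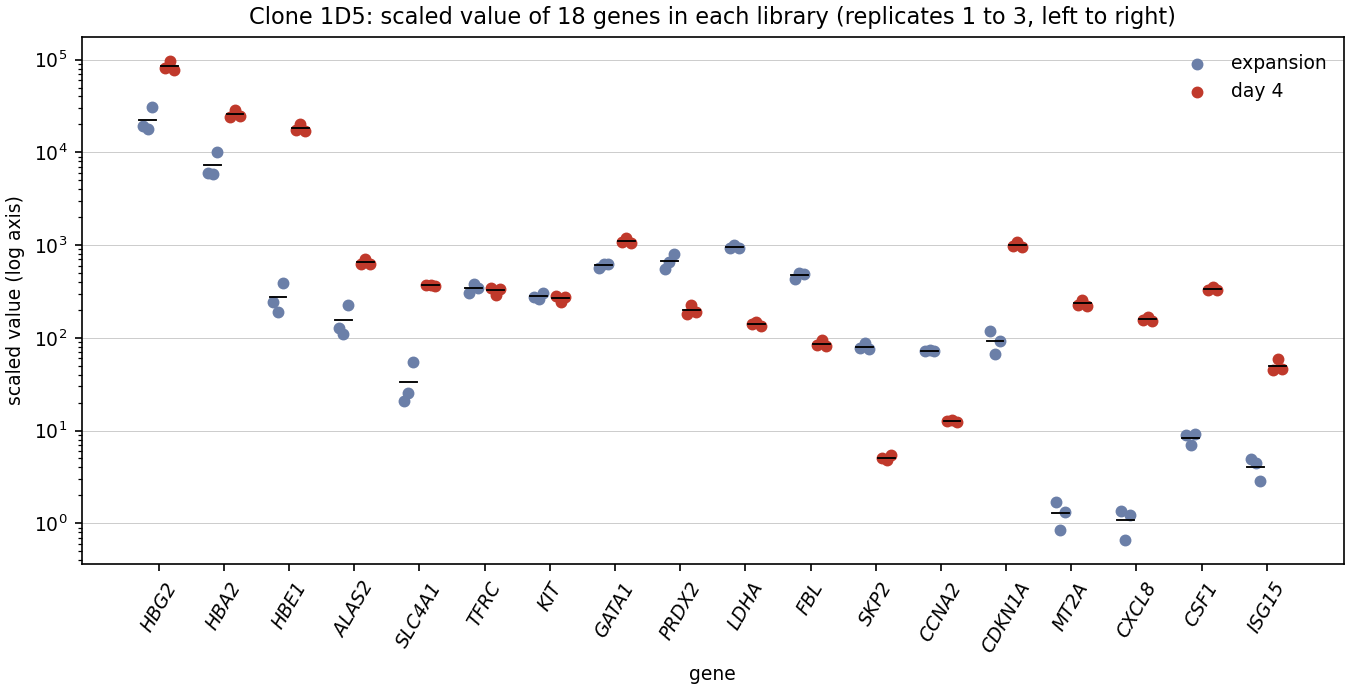
Scaled value (log axis) of 18 genes in the 6 libraries of clone 1D5, with expansion in blue, day 4 in red, replicates 1 to 3 from left to right, and a black line at the mean of each group. Globin, ALAS2 and SLC4A1 values were higher at day 4, TFRC and KIT overlapped, PRDX2, LDHA, FBL, SKP2 and CCNA2 were lower, and MT2A and CXCL8 went from about 1 to above 100.

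Genes of heme synthesis split. Of 14 tested, 9 were higher and 3 lower, with a median of 0.38. ALAS2, the erythroid enzyme that opens the pathway, measured 126, 111 and 229 in expansion and 629.5, 708 and 628 at day 4, and expansion replicate 3 was the highest of its group without reaching day 4. The difference was 2.14 (SE 0.29, limma adjusted p = 2.3e-06), and 2.46 without that library. SLC25A39, a carrier of the inner mitochondrial membrane, rose by 1.34. ALAD, the enzyme of the step after ALAS2, fell: its values were 38.5, 41.03 and 36.6 in expansion and 15.4, 15.1 and 14.7 at day 4, with no overlap, and the difference was -1.30 (SE 0.10, limma adjusted p = 1.8e-09). ABCB10, a transporter of the inner mitochondrial membrane needed for heme production, fell by 1.44 on the log2 scale and CPOX, a later enzyme, by 0.67.

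The RefSeq promoter window of ALAS2 (250 bases before to 50 after the start, GRCh38.p14, chrX:55030928-55031227, minus strand) is shown because ALAS2 led this list. Capitals mark the 1 match to AGATAA or TGATAA, read on both strands, the letters that GATA factors bind.
ALAS2: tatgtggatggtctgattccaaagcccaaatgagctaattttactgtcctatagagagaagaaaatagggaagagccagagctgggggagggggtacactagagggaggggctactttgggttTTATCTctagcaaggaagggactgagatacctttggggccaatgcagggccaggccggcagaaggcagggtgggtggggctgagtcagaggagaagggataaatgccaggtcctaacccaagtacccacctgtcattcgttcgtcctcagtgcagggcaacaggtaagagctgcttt
That motif is in 7.65% of the 8761 tested genes with a window, in 10.8% of 1020 called at least 2-fold higher and in 6.24% of 929 called at least 2-fold lower. Where a symbol had several windows the first listed was used, and a match is a description, not a site or a cause.

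Iron genes had 7 of 16 higher and 4 lower. HEPH, a ferroxidase, rose by 2.10. NCOA4, the receptor that sends ferritin to the lysosome, measured 98.96, 99.01 and 111 in expansion and 389, 381 and 391.6 at day 4, with no overlap, a difference of 1.90 (SE 0.08, limma adjusted p = 2.6e-13). FTH1, the ferritin heavy chain, rose by 1.65. STEAP3, the endosomal ferrireductase, fell by 1.38. TFRC, the transferrin receptor that brings iron into the cell, overlapped at 307, 381 and 344 in expansion and 342, 292 and 338 at day 4 and was not called (difference -0.09, SE 0.12). In heme breakdown, HMOX1, the inducible heme oxygenase, measured 8.88, 9.09 and 17.6 in expansion and 99.4, 116 and 98.4 at day 4 and rose by 3.10 (SE 0.17, limma adjusted p = 1.1e-11), or by 3.4 without expansion replicate 3, while HMOX2, the constitutive form, fell by more than 2-fold.

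Membrane genes mostly rose. Among blood group carriers and the main integral proteins, 17 of 25 were higher and 1 lower (median 0.76). SLC4A1, the band 3 anion exchanger, measured 20.99, 25.5 and 54.5 in expansion and 372, 374 and 365 at day 4, so expansion replicate 3 was above the other expansion libraries and still far below day 4. The difference was 3.54 (SE 0.40, limma adjusted p = 2.0e-07), and 3.94 without that library. AQP1, the water channel, went from 0.269, 0.374 and 0.215 to 13.9, 14.6 and 13.2, a difference of 3.54 (SE 0.08, limma adjusted p = 2.5e-16). In this clone AQP1 met the minimum level for testing only at day 4, which favours rises. The fall was in ACKR1, the Duffy chemokine receptor, at 6.68, 7.42 and 6.56 in expansion and 1.46, 1.54 and 1.88 at day 4, which dropped by 1.59.

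In the membrane skeleton 10 of 16 genes were higher and 4 lower. DMTN, an actin bundler, and MPP1, a scaffold of the junctional complex, rose by 2.36 and 1.38, and EPB42, which ties band 3 to the skeleton, by 1.05. DMTN rose by 2.61 without expansion replicate 3. The spectrin SPTB and the adducin ADD2 were lower, with differences of -0.41 and -0.88.

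GATA1 itself measured 571, 620.1 and 619.8 in expansion and 1069, 1196 and 1056 at day 4, a rise of 0.87 (SE 0.06, limma adjusted p = 3.2e-10). A gene-level value cannot tell the short from the full-length form. Among 27 erythroid transcription factors and partners 17 were higher and 5 lower. NFE2, a globin and megakaryocyte regulator, and ZFPM1, the GATA1 cofactor FOG1, rose by 1.73 and 1.77. TAL1 rose by 0.76 and KLF1, the activator of adult beta globin, by 0.44. BCL11A, the repressor of fetal globin, fell from 6.72, 7.84 and 5.31 to 0.369, 0.2496 and 0.655, a difference of -2.42 (SE 0.16, limma adjusted p = 1.2e-10). KLF13 and IKZF1 fell by 0.60 and 0.51.

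Of 9 tested genes of the progenitor stage 3 were higher, 2 lower and 4 not called, and on the deposited values 2 were higher and 6 lower. KIT, the SCF receptor, measured 278, 259 and 301 in expansion and 280.1, 243 and 276 at day 4, and the groups overlapped, with a difference of -0.07 (SE 0.08, limma adjusted p = 0.45). GATA2 measured 113, 127 and 124 in expansion and 112, 123 and 114 at day 4, again with overlap, and differed by -0.06 (SE 0.09). MYB, a factor of proliferating progenitors, was below expansion in every day 4 library, at 87.05, 84.8 and 80.1 in expansion and 77.9, 73.7 and 75.9 at day 4, yet was not called (difference -0.14, SE 0.08, limma adjusted p = 0.087). On the deposited values KIT, GATA2 and MYB were called lower, at -0.24, -0.23 and -0.31, and MYB also when only the 1D5 libraries set the scaling and the fit or only the clones compared entered it. EPOR, the erythropoietin receptor, rose by 0.45. Downstream of it, BCL2L1, the survival factor BCL-XL, and the kinases PIM1 and PIM2 rose by 1.73, 1.29 and 1.68.

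In the late erythroid list 13 of 25 genes were higher and 7 lower (median 0.32), beside 39.7% and 39.8% of all tested genes, so falls were no more frequent than among all genes. Some of the genes that fell are known from maturing red cells. PRDX2, an abundant red cell peroxidase, measured 553, 657 and 792 in expansion and 183, 225 and 189.6 at day 4, with no overlap, and the difference was -1.73 (SE 0.15, limma adjusted p = 6.5e-09). PKLR, the red cell pyruvate kinase, measured 40.02, 58.95 and 52.8 in expansion and 13.5, 15.3 and 14.4 at day 4, a difference of -1.73 (SE 0.12, limma adjusted p = 4.8e-10). CA2, a carbonic anhydrase, fell by 1.11 while CA1, its paralog, rose by 1.41. BPGM, which makes the oxygen-affinity regulator of hemoglobin, rose from 10.8, 10.7 and 12.1 to 66.9, 73.5 and 64.8, a difference of 2.51 (SE 0.12, limma adjusted p = 2.4e-12). SELENBP1, a selenium-binding protein of late erythroblasts, overlapped at 9.64, 10.8 and 11.5 in expansion and 11.8, 11.2 and 10.6 at day 4 and was not called (difference 0.07, SE 0.19).

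**Figure D2:**
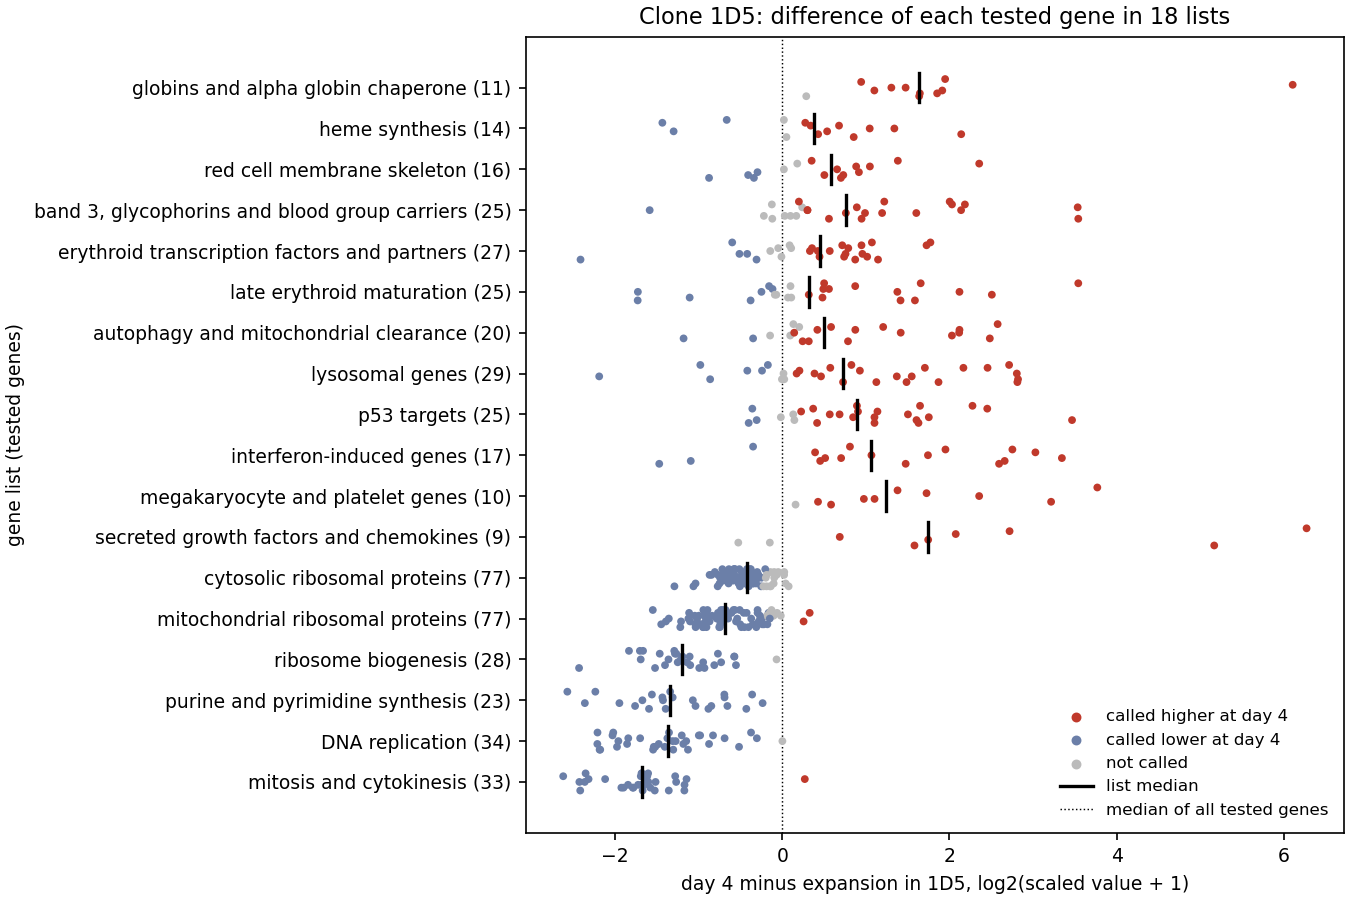
Day 4 minus expansion in clone 1D5 on log2(scaled value + 1) for every tested gene of 18 lists (horizontal axis), with the number of tested genes after each list name, colour for the call, a black bar at the list median and a dotted line at the median of all tested genes. Mitosis, DNA replication and nucleotide synthesis lay almost wholly below 0, while secreted factors had a median of 1.75.

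Cell division genes fell nearly as a whole. Of 33 genes of mitosis and cytokinesis 32 were lower, all by at least 2-fold, against 10.8% of all tested genes, and the median was -1.68. AURKB, the kinase of the chromosomal passenger complex, measured 64.5, 73.8 and 62.2 in expansion and 9.52, 10.7 and 9.78 at day 4, a difference of -2.62 (SE 0.08, limma adjusted p = 6.4e-15). CCNA2, the S and G2 phase cyclin, went from 72.4, 73.1 and 72.4 to 12.5, 13.2 and 12.3, a difference of -2.43 (SE 0.06, limma adjusted p = 6.1e-16). The exception was UBE2C, which has near-identical copies, lay below 1 in every library and was called higher by 0.27 (limma adjusted p = 0.049). That call was lost under 10 alternatives, and its sign changed on ranks within library.

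DNA replication had 33 of 34 genes lower, 25 of them by at least 2-fold. The helicase subunits MCM4 and MCM10 and the licensing factor CDC6 fell by 2.21, 2.21 and 2.19. SKP2, which targets CDK inhibitors for destruction, was among the largest falls: 77.1, 87.1 and 75.2 in expansion and 5.05, 4.85 and 5.39 at day 4, with no overlap and a difference of -3.73 (SE 0.07, limma adjusted p = 2.1e-17). UHRF1, which guides maintenance methylation of DNA, fell by 2.97. CDKN1A, the CDK inhibitor p21, went the other way, with 117, 66.2 and 93.2 in expansion and 973, 1083 and 959 at day 4, a rise of 3.47 (SE 0.17, limma adjusted p = 2.5e-12). CDKN1C, p57, fell by 2.58 and CDKN1B, p27, was not called (difference -0.11, SE 0.06), although on the deposited values it was called lower at -0.28, and without expansion replicate 1 at -0.18.

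The window of CDC20, the activator of the anaphase-promoting complex, is shown for this group (chr1:43358731-43359030, plus strand, RefSeq, GRCh38.p14). This gene was picked by hand, outside the rule for named genes, and AURKB fell further. CDC20 measured 90.5, 95.5 and 85.3 in expansion and 18.9, 23.5 and 17.9 at day 4, and its difference was -2.12 (SE 0.09, limma adjusted p = 8.3e-13). Capitals mark TTTGAA, the core of the cell cycle homology region, on either strand.
CDC20: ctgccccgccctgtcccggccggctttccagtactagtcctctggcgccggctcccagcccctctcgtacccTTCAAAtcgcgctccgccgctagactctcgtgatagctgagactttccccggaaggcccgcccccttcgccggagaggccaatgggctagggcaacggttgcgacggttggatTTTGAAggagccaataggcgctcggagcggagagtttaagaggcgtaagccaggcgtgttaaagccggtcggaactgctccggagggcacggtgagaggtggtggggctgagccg
TTTGAA is in 20 of 28 windows of the mitosis genes called lower (71.4%), in 9.37% of tested genes and in 15.4% of all 27305 windows, and CCAAT is in 22 of those 28 (78.6%) against 37.1% of tested genes. The motifs were chosen with the lists' results known.

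Growth metabolism fell with division. All 23 genes of purine and pyrimidine synthesis were lower, 15 by at least 2-fold, with a median of -1.34. RRM2, the small subunit of ribonucleotide reductase, measured 189.6, 184 and 170 in expansion and 36.9, 36.6 and 29.96 at day 4, and PRPS2, which makes the ribose phosphate donor, 38.9, 37.9 and 35.6 in expansion and 5.005, 6.19 and 5.23 at day 4. Their differences were -2.36 (SE 0.09, limma adjusted p = 6.1e-14) and -2.57 (SE 0.08, limma adjusted p = 1.2e-14). Of 19 serine, glycine and folate enzymes 17 were lower, among them CBS, GLDC and PSAT1, by 2.52, 2.51 and 2.78. MYC, a driver of these programmes, measured 260.1, 318 and 275 in expansion and 124, 132 and 116 at day 4, a difference of -1.19 (SE 0.08, limma adjusted p = 9.9e-11). Its antagonists MXD4 and MXI1 rose by 1.64 and 1.17.

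Ribosome production fell as well. Of 28 biogenesis genes 27 were lower, with a median of -1.21. FBL, the methyltransferase of ribosomal RNA, measured 429.8, 502 and 483 in expansion and 82.9, 94.6 and 82.1 at day 4 and differed by -2.43 (SE 0.07, limma adjusted p = 1.8e-15). The list of 77 cytosolic ribosomal proteins had 61 lower and none higher, with a median of -0.42. When each library was converted to ranks, 35 were lower and 17 higher. RPLP1, a stalk protein, led at 2872, 3206 and 3039 in expansion and 1217, 1376 and 1137 at day 4, a difference of -1.29 (SE 0.09, limma adjusted p = 2.8e-10). The mitochondrial ribosome had 69 of 77 proteins lower and 2 higher.

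Mitochondrial and glycolytic genes fell in most cases. Among nuclear genes of complex I 28 of 37 were lower, and of complexes II to IV and ATP synthase 34 of 39. CYCS, cytochrome c, fell by 1.55 and CS, citrate synthase, by 1.53. The chaperonin pair HSPE1 and HSPD1, which folds mitochondrial proteins, fell by 1.77 and 1.72. The 13 mitochondrially encoded genes did not move as a block: 3 were higher and 5 lower, and on ranks within library 2 were higher and 10 lower. MT-CO1 rose by 0.73 and MT-ND6 fell by 1.55. In glycolysis 16 of 25 were lower. LDHA, lactate dehydrogenase A, measured 934, 992 and 922 in expansion and 141, 146 and 133 at day 4 and moved from ranks 130, 128 and 131 to 619, 646 and 657.5, a difference of -2.75 (SE 0.10, limma adjusted p = 5.3e-14). SLC2A1, the glucose transporter, rose by 1.76 and ENO2, an enolase, by 2.48.

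Lysosomal and autophagy genes rose. Of 29 lysosomal genes 20 were higher and 6 lower, with a median of 0.73, and 12 rose by at least 2-fold. The proteases CTSB, CTSD and CTSA rose by 2.82, 2.81 and 2.81, and CTSD for example measured 74.3, 70.1 and 74.6 in expansion and 492, 569 and 493 at day 4. CTSC, another protease, fell by 2.19 and LAMP1, a lysosomal membrane protein, by 0.86. In autophagy 14 of 20 were higher and 2 lower. SQSTM1, the cargo receptor p62, measured 145, 133 and 166 in expansion and 839, 865 and 788 at day 4, a difference of 2.48 (SE 0.09, limma adjusted p = 8.1e-14), and GABARAPL1 and ULK1 rose by 2.58 and 2.12. BNIP3L, the receptor for mitochondrial clearance in reticulocytes, rose by 0.32, and its paralog BNIP3 fell by 1.18.

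MT2A, a metallothionein that binds zinc and copper, had the largest difference with pseudocount 1. Among the named genes CELA2B, AQP2 and KCNN4 exceeded it with pseudocount 0.1, and HBE1 and AKR1C1 with pseudocount 5. It measured 1.704, 0.848 and 1.32 in expansion and 224, 258 and 223 at day 4, moving from ranks 9692.5, 10226.5 and 9874 to 357, 339 and 356, with no overlap and a difference of 6.70 (SE 0.16, limma adjusted p = 6.1e-16). MT2A is also a glucocorticoid-induced gene, and dexamethasone is listed for expansion, where it was low. In that list FKBP5 measured 322, 309 and 426 in expansion and 199, 201 and 200.01 at day 4 and fell by 0.80, while TSC22D3 (GILZ) measured 150.1, 128 and 162 in expansion and 415, 454 and 420.4 at day 4 and rose by 1.55, and 7 of 13 were higher and 5 lower. The part of the medium in these values was not tested. The MT2A window is shown because its difference was among the largest under each of these pseudocounts (chr16:56608334-56608633, plus strand, RefSeq, GRCh38.p14). Capitals mark TGCGCNC, a form of the metal response element core, read on both strands. Other forms of the core were not searched and are not marked.
MT2A: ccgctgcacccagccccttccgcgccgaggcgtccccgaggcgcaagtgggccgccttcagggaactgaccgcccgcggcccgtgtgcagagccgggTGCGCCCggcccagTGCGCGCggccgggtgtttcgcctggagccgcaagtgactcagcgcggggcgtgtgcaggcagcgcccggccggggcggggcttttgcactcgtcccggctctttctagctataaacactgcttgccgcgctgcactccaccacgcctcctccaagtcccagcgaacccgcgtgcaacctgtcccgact
Short and rich in G and C, TGCGCNC is common, in 31.7% of tested genes and 20% of all windows. It is in 25% of genes called at least 2-fold higher and in 38% of those called at least 2-fold lower.

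Beside SKP2, large falls were those of GAL, the neuropeptide galanin, which measured 75.6, 81.6 and 66.8 in expansion and 3.55, 4.92 and 4.19 at day 4 and dropped by 3.86, and of LPL, lipoprotein lipase, which measured 13.99, 19.6 and 15.1 in expansion and 0.513, 0.336 and 0.409 at day 4 and dropped by 3.59. Neither overlapped between the groups. PPIF, the mitochondrial cyclophilin, HPDL and the neurofilament NEFH fell by 3.08, 3.07 and 2.99.

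Other large rises came from genes with varied roles. AKR1C1, a steroid-metabolising ketoreductase, measured 12.4, 9.03 and 5.904 in expansion and 663, 728 and 629 at day 4, a difference of 6.11 (SE 0.21, limma adjusted p = 3.8e-14). AQP2, a water channel of the kidney, went from 0.188, 0.228 and 0.342 to 74.3, 78.9 and 73.6, a difference of 5.93 (SE 0.11, limma adjusted p = 8.4e-18). KCNN4, the Gardos potassium channel of red cells, rose by 5.14, the integrin ITGB4 by 4.76, the protease inhibitor CST7 by 4.73 and the elastase CELA2B by 5.07. C4A and C4B, near-identical complement genes whose reads cannot be split with certainty, rose by 5.21 and 4.84. AQP2, KCNN4, CST7, CELA2B and C4A were below 1 in every 1D5 expansion library. In this clone they met the minimum level for testing only at day 4, which favours rises. Among p53 targets 19 of 25 were higher and 3 lower, with PMAIP1, an apoptosis sensitiser, and BTG2, an antiproliferative factor, at 2.45 and 2.28.

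Secreted factors rose. Of 23 listed growth factors and chemokines 9 were tested, of which 7 were higher and none lower, and on the deposited values 2 were lower. With a stricter filter on low values 5 were higher. A gene near 0 in every expansion library could pass either filter only through day 4, which favours rises. CXCL8, interleukin 8, measured 1.35, 0.656 and 1.24 in expansion and 155, 167 and 153 at day 4, a difference of 6.28 (SE 0.19, limma adjusted p = 6.3e-15). CSF1, the macrophage growth factor, measured 8.903, 6.97 and 9.26 in expansion and 325, 349 and 329.6 at day 4, with no overlap and a difference of 5.17 (SE 0.09, limma adjusted p = 8.4e-18). GDF15, an erythroblast-secreted stress cytokine, rose by 2.72, or by 2.98 without expansion replicate 3.

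Of 24 listed interferon-induced genes 17 were tested, under the same filter. They rose in 14 of 17 cases, and the other 3, the membrane proteins IFITM1, IFITM2 and IFITM3, fell. The call of IFITM1 (-0.35) was lost with pseudocount 0.1 and without expansion replicate 1, expansion replicate 2, day 4 replicate 1 or day 4 replicate 3. ISG15, a ubiquitin-like modifier, measured 4.95, 4.48 and 2.82 in expansion and 45.02, 58.98 and 46.5 at day 4, with no overlap and a difference of 3.35 (SE 0.15, limma adjusted p = 7.1e-13). IFIT2 went from 0.188, 0.109 and 0.371 to 8.83, 9.28 and 8.73 and IFIT3 from 0.117, 0.0729 and 0.205 to 6.05, 7.05 and 6.801, differences of 3.03 (SE 0.09, limma adjusted p = 4.4e-15) and 2.75 (SE 0.08, limma adjusted p = 3.7e-15). Both belong to the IFIT family of antiviral proteins, and both were near 0 in expansion. The windows of ISG15 (chr1:1013247-1013546) and IFIT3 (chr10:89327747-89328046), both plus strand from RefSeq, GRCh38.p14, are shown because these genes are among its largest rises. Capitals mark the interferon response element, taken as TTTC, any 2 bases and TTTC again, read on both strands, and in ISG15 the matches overlap.
ISG15: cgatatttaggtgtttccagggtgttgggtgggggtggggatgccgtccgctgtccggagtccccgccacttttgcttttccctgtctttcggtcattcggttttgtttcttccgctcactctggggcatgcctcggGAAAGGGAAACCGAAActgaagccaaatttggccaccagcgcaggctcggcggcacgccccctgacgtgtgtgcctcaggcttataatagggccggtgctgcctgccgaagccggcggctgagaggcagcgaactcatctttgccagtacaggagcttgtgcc
IFIT3: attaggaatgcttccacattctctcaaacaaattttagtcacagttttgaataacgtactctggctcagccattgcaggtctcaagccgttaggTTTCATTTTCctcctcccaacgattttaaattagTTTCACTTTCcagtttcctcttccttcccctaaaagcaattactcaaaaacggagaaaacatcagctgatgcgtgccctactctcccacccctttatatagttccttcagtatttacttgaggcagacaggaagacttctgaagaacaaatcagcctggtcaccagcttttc
This element is in 7 of 10 windows of the list's genes called higher (70%), in 2.66% of tested genes and in 3.65% of all windows. Among all genes called at least 2-fold higher it is in 3.33%, and among those at least 2-fold lower in 1.94%.

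Some genes of other blood lineages rose. Of 22 listed megakaryocyte and platelet genes 10 were tested, and 9 were higher. Of 18 listed mast cell, basophil and eosinophil genes 8 were tested, 5 higher and 1 lower. Of 29 listed monocyte and neutrophil genes 16 were tested, 10 higher and 3 lower, or 7 and 5 on ranks within library. With the stricter filter 7 of 7, 3 of 5 and 5 of 8 were higher and 0, 1 and 2 lower. Here too the filters favour rises among genes near 0 in expansion. THBS1, thrombospondin, went from 0.161, 0.146 and 0.0293 to 14.7, 14.4 and 13.4 and ITGB3, the beta chain of the platelet integrin, from 1.93, 0.766 and 1.798 to 22.3, 20.5 and 22.2. Their differences were 3.77 (SE 0.10, limma adjusted p = 3.1e-15) and 3.22 (SE 0.16, limma adjusted p = 3.1e-12). ITGA2B, the alpha chain that pairs with it, stayed at or below 1.18 in every library and was not called. TPSB2, a mast cell tryptase, measured 7.63, 3.55 and 4.799 in expansion and 147, 166 and 147 at day 4 and rose by 4.66, while PRG2, the eosinophil major basic protein, fell by 2.05. The summed level of the 5 mast cell, basophil or eosinophil markers in the table was 76.5 to 92.3 in expansion and 178 to 202 at day 4. TPSB2 made up most of that rise, TPSAB1, another tryptase, went from at most 1.24 to at least 14.4, and FCER1A and MS4A2, chains of the IgE receptor, stayed at or below 0.662. CD68, a lysosomal protein of macrophages, measured 33.3, 22.05 and 35.4 in expansion and 328, 373 and 331 at day 4, a difference of 3.49 (SE 0.16, limma adjusted p = 9.6e-13), and the 4 monocyte or neutrophil markers summed to 29.2 to 40.1 in expansion and 335 to 379 at day 4. CD68 carried that rise: LYZ, lysozyme, lay between 4 and 6.97 in expansion and between 5.82 and 7.2 at day 4, and CSF1R and ELANE stayed at or below 0.624. The myeloid factors CEBPA and SPI1 fell by 2.19 and 1.39. The part of other cell types in these values was not tested.

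The response of 1D5 differed from that of FL in 5784 genes (52.5%), 2694 with the more positive difference in 1D5 and 3090 with the more negative one (24.5% and 28.1%, limma). Differences of at least 2-fold were more positive in 400 genes (3.63%) and more negative in 691 (6.27%). That split rests on the scaling: the share with the more positive difference was 46.6% here, 75.1% on the deposited values and 69.4% when scaled to the sum without globin and mitochondrial genes. The clones share no library. In FL itself 82.1% of tested genes were called, 41.9% higher and 40.3% lower, with 16.9% higher and 13.7% lower by at least 2-fold. Side by side, 3551 genes were called higher in both and 3544 lower in both. Another 304 genes were lower in 1D5 and higher in FL, and 239 the other way. On the deposited values these counts were 155 and 430.

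Erythroid lists were below FL in this comparison. The median of the late erythroid list was 1.39 in FL against 0.32 in 1D5, with 21 of 25 genes more negative in 1D5, 19 to 22 over the alternatives, and none more positive. For heme synthesis all 14 were more negative (12 to 14 over the alternatives), with medians of 1.73 in FL and 0.38 in 1D5. For globins 10 of 11 were more negative, and 5 on ranks within library, where 1 was more positive. The background is 28.1% of genes more negative in 1D5. FL expansion replicate 1 stood apart in its group. Globins made up 10.6% of its deposited total, against 5.55% and 5.73% in the other FL expansion libraries. The alternatives left out 1D5 libraries only, so the part of this FL library in these counts was not tested.

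On this scaling some of these genes went in opposite directions. PRDX2 differed by 0.97 in FL, so 1D5 minus FL was -2.71 (SE 0.21, limma adjusted p = 1.7e-08). ALAD differed by 1.76 in FL, and 1D5 minus FL was -3.06 (SE 0.15, limma adjusted p = 4.5e-11). With 1D5 minus FL in parentheses, FL differed in PKLR by 0.49 (-2.22), in ABCB10 by 0.52 (-1.95), in ACKR1 by 0.97 (-2.56), in AQP3 by 2.51 (-3.57) and in MYL4 by 2.10 (-3.66). The FL values rest on the scaling, with factors of 0.754 to 0.764 at day 4 and 1.01 to 1.10 in expansion. FL differences are therefore lower on the deposited values, which matters most for the small rises of PKLR and ABCB10. CDKN1C differed by 1.02 in FL, 1D5 minus FL -3.60 (SE 0.25, limma adjusted p = 3.6e-09).

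Others moved in FL and were not called in 1D5. SELENBP1 differed by 4.86 in FL, with 1D5 minus FL at -4.79 (SE 0.26, limma adjusted p = 2.8e-10). KIT and GATA2 fell in FL, to differences of -1.83 and -1.02, and 1D5 minus FL was 1.76 (SE 0.12, limma adjusted p = 2.5e-09) and 0.96 (SE 0.13, limma adjusted p = 6.8e-06). TFRC and E2F2, the E2F factor of terminal erythroid divisions, differed by 1.86 and 1.70 in FL, with 1D5 minus FL at -1.95 and -1.71 (limma adjusted p of at most 4.7e-08). ALAS2, HBB, AHSP, BPGM, EPOR, KLF1 and BNIP3L rose in both clones and less in 1D5, by differences of -2.24, -3.00, -2.42, -2.15, -1.90, -1.41 and -1.07, with the call for AHSP lost on ranks. HIST1H1C, a linker histone, rose by 3.11 in 1D5 and 5.73 in FL, a difference of -2.62 (SE 0.22, limma adjusted p = 3.3e-08).

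**Figure D3:**
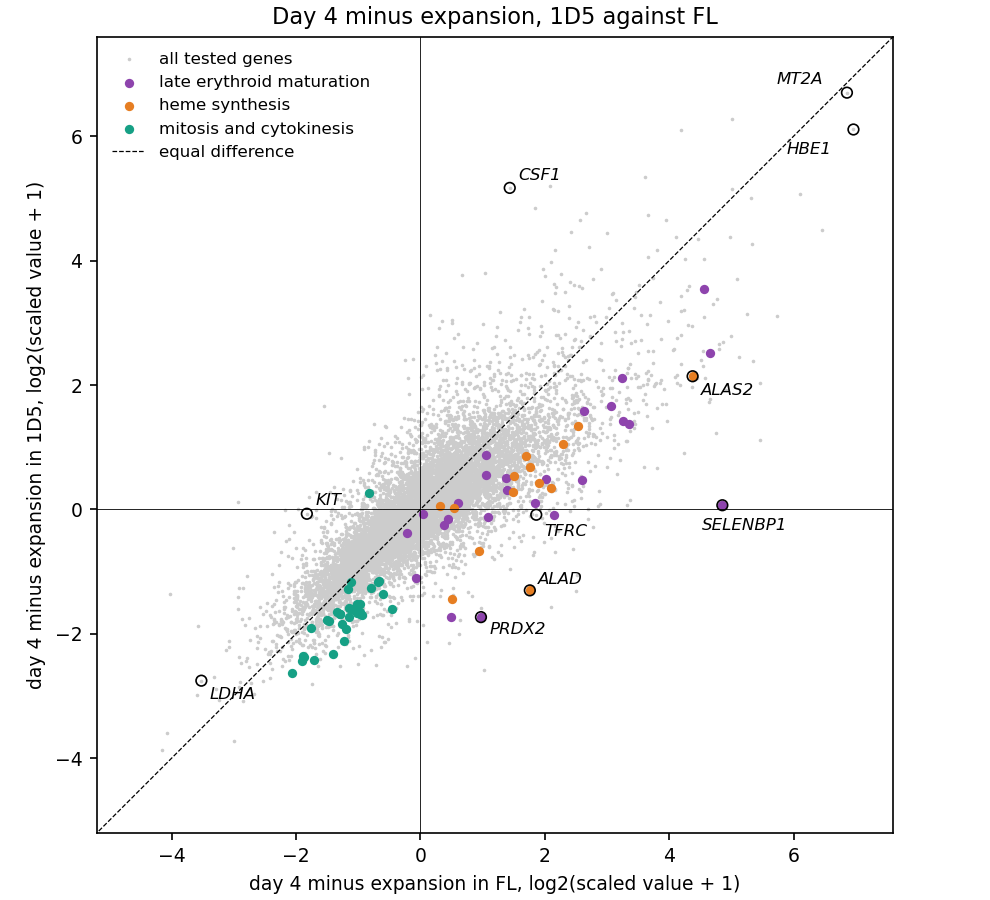
Day 4 minus expansion on log2(scaled value + 1) in clone FL (horizontal axis) and in clone 1D5 (vertical axis), each point a tested gene, with 3 lists in colour, named genes circled and a dashed line of equal difference. Late erythroid and heme synthesis genes lay below the line, ALAD and PRDX2 below 0 in 1D5 and above 0 in FL, and CSF1 far above the line.

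Genes whose rise was larger in 1D5 than in FL included CSF1, with 1.44 in FL and a difference of 3.73 (SE 0.13, limma adjusted p = 1.9e-12), THBS1, with 0.67 and 3.10 (SE 0.15, limma adjusted p = 4.5e-11), and C4A, with 2.08 and 3.13 (SE 0.15, limma adjusted p = 4.3e-11). For CXCL8, AKR1C1, ISG15, IFIT2 and IFIT3 1D5 minus FL was 1.26, 1.91, 1.39, 2.68 and 2.21. The interferon list as a whole did not move one way: 7 of its 17 genes were more positive in 1D5 and 8 more negative. Mitosis genes were more negative in 1D5 in 29 of 33 cases, but in 13 on the deposited values. Cytosolic ribosomal proteins had a median of 0.03 in FL, and 65 of 77 were more negative in 1D5. On the deposited values 33 were more negative and 4 more positive, and on ranks within library 23 and 14.

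Against 1KI9, the other GATA1s clone, 2957 genes differed (26.8%), 1369 with the more positive difference in 1D5 and 1588 with the more negative (12.4% and 14.4%). In 1KI9 itself 73.1% of tested genes were called, 37.5% higher and 35.6% lower, with 7.22% higher and 5.94% lower by at least 2-fold. The share with the more positive difference was 46.3%, and 80.2% and 65.7% on the deposited values and the sum scaling. Among differences of at least 2-fold, 238 were more positive in 1D5 (2.16%) and 16 more negative (0.145%). The medians of the erythroid lists in 1KI9 were 0.24 for late erythroid genes, 0.56 for heme synthesis and 1.55 for globins, and of 14 heme genes 1 differed between the clones.

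Growth genes fell further in 1D5 than in 1KI9. DNA replication was more negative in 28 of 34 genes, ribosome biogenesis in 23 of 28 and nucleotide synthesis in 17 of 23, against 14.4% of all tested genes, and none of these lists had a gene more positive. On the deposited values these counts were 7, 7 and 7, where 480 of all 11015 tested genes were more negative. Against FL, on the main scaling, ribosome biogenesis had 18 genes more positive in 1D5 and 2 more negative. Nucleotide synthesis had 11 and 3, and DNA replication 4 and 9. PSAT1, the serine synthesis aminotransferase, differed by 0.01 in 1KI9, 1D5 minus 1KI9 -2.79 (SE 0.21, limma adjusted p = 1.8e-07). In p53 targets 18 of 25 were more positive in 1D5 and 1 more negative, and CDKN1A differed by 1.95 in 1KI9, 1D5 minus 1KI9 1.52 (SE 0.24, limma adjusted p = 2.7e-04). Against FL 1 p53 target was more positive in 1D5 and 14 more negative. The medians of that list were 0.89 in 1D5, 1.40 in FL and 0.11 in 1KI9.

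Single genes with a larger rise in 1D5 than in 1KI9 included NDRG4, TPSB2, CD68 and ITGB3, by 2.15, 2.41, 1.86 and 1.96. RRAD, a small GTPase, rose by 3.58 in 1D5 and differed by 0.56 in 1KI9, 1D5 minus 1KI9 3.02 (SE 0.27, limma adjusted p = 1.2e-06). TSC22D3 rose by 1.27 more in 1D5.

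In 373 genes (3.39%) the 1D5 response differed from both other clones in the same direction, 250 more positive (2.27%) and 123 more negative (1.12%). By at least 2-fold they were 70 (0.635%) and 4 (0.0363%). The share more positive was 67%, and 94.7%, 87.6% and 76.2% on the deposited values, the sum scaling and upper-quartile scaling. Leaving out expansion replicate 2 gave 236 genes, 56 of them more negative. PPL, the desmosomal protein periplakin, measured 0.834, 0.447 and 0.831 in expansion and 11.7, 12.3 and 13.1 at day 4 and rose by 2.98, against 1.00 in FL and 0.95 in 1KI9. PRSS23, a serine protease, measured 4.59, 1.55 and 3.23 in expansion and 12.3, 14.5 and 12.8 at day 4 and rose by 1.85, while FL and 1KI9 differed by -0.18 and -0.13. BATF, a leucine zipper factor of lymphocytes, measured 6.28, 3.53 and 5.38 in expansion and 23.2, 27.5 and 23.5 at day 4 and rose by 2.11, against -0.20 and 0.19. In each of these the 1D5 groups did not overlap. PPL met the minimum level for testing in 1D5 only at day 4, which favours rises.

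ANTXR2, a receptor for anthrax toxin, VASH1, an inhibitor of angiogenesis, EVI2A, LURAP1L and SPINK4 rose by 3.98, 5.34, 3.13, 2.58 and 4.17, more than in both other clones. Against FL the calls of the difference were lost for VASH1 and SPINK4 with pseudocount 0.1, and against 1KI9 for SPINK4 on ranks within library. EVI2A minus 1KI9 ranged from 0.48 to 2.61 over the alternatives and stayed called. PRG2 fell further than in FL (-0.62) and 1KI9 (-0.66). HBZ rose by 3.33 in FL and 3.44 in 1KI9, above its rise in 1D5, and the call against FL was lost on ranks. ID1, an inhibitor of differentiation factors, rose in FL and 1KI9 by 1.27 and 1.21 and measured 6.54, 8.898 and 7.94 in expansion and 9.02, 10.5 and 8.97 at day 4 in 1D5. Its 1D5 difference was not called. It was called higher, at 0.18 to 0.39, under upper-quartile and sum scaling, pseudocount 5, the stricter filter, a replicate block and without expansion replicate 2. SLC6A19, SPIN4, CDC42EP1, SLC2A14 and GALNT6, like ID1, had a more negative difference in 1D5 than in both other clones. CSF1, CXCL8, AKR1C1, ISG15, IFIT2 and IFIT3 exceeded 1KI9 too, by 1.11, 1.54, 1.44, 1.78, 1.84 and 1.74, with the call for CSF1 lost on ranks.

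**Figure D4:**
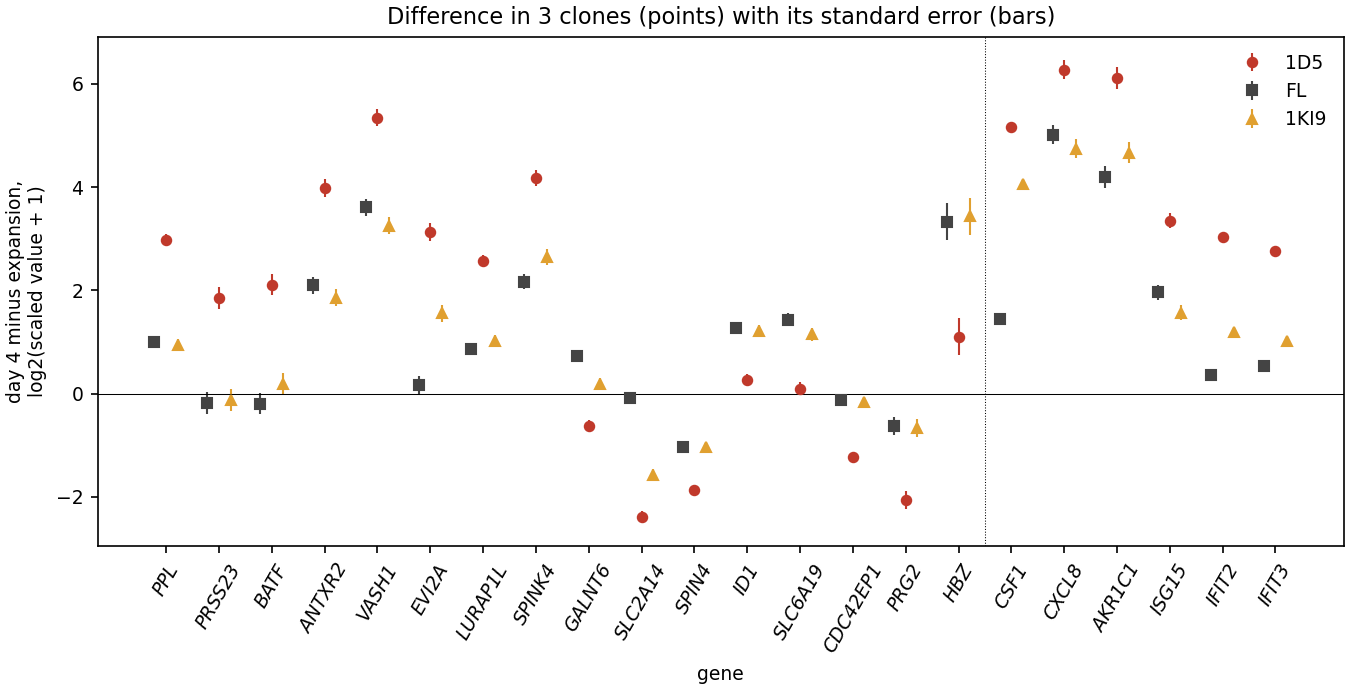
Day 4 minus expansion on log2(scaled value + 1), with the standard error as bars, in 1D5 (red circles), FL (dark squares) and 1KI9 (yellow triangles) for the 16 genes named as differing from both other clones and, right of the dotted line, 6 secreted, ketoreductase and interferon genes. In PRSS23 and BATF the 1D5 points lie near 2 and the other clones near 0, and HBZ lies lower in 1D5.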

How the data were processed

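RNA-seq of 18 HUDEP1 libraries was read from the deposited table of 13358 genes. Expansion columns hold the authors' TPM. Day 4 columns hold a signal that the authors scaled by a method not given in the sources used here, and it is not comparable with TPM as deposited. TPM had been assumed for both conditions, so the day 4 values were treated as a TPM-like signal. The submitters' processing notes name Trim Galore 0.60, STAR 2.7, RSEM 1.31 and GRCh38.p12, without roles or strand setting. Depth is unknown, so no counting interval is given.

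Libraries were divided by median-of-ratios factors over 11554 genes above 0 in all 18. Genes were kept where 3 or more libraries had a deposited value of 1 or more, and those listed at 0 in all 9 libraries of a condition were left out of tests, which left 11015. limma 3.58.1 (R 4.3.3) was fitted to log2(scaled value + 1) with 6 group means and a variance trend, and p-values were Benjamini-Hochberg adjusted over all tested genes, with a threshold of 0.05. Differences between clones are interaction contrasts. For the difference from both clones, the larger of the 2 interaction p-values was taken where both contrasts had the same sign. It was Benjamini-Hochberg adjusted anew over all tested genes, so these genes are not the overlap of the 2 sets of calls. In simulated data with normal noise, 50 of 11015 genes were changed at each size, all with a mean level above a scaled value of 10. All other genes were left unchanged. Of the changed genes, 94% at 0.5 on the log2 scale and 100% at 1 were recovered for 1D5. Low genes, and data in which most genes change, were not simulated. At 0.5, 70% were recovered for the difference from FL and 64% for the difference from both clones. Python used pandas 2.3.3, numpy 2.4.6, scipy 1.17.1 and matplotlib 3.10.9.

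The rule for named genes took the 15 largest rises and 15 largest falls with a mean of at least 10 and no overlap, up to 3 rises and 3 falls of each of 52 lists, fixed erythroid and control genes, and up to 8 genes each way that differ from both clones. Genes of the clone comparisons beyond that were chosen after their values were seen. CDC20, whose window is shown, was picked by hand outside this rule. A few genes of these lists are not reported here. Members and lists were chosen with earlier results of these data known. Alternatives were other scalings, ranks, pseudocounts, filters, fits, a replicate block and leaving out each 1D5 library. The fit from 1D5 alone, and the counts of list members by setting, were added after seeing the data.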

Additional observations from a re-analysis of the deposited data

Results flagged for a closer look

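The response of 1D5 was set against the other clones by a test of the difference itself (limma interaction contrasts, adjusted over 11015 genes). It passed for 5784 genes against FL, for 2957 against 1KI9 and for 373 against both in the same direction. Every gene value below is 1D5 minus the other clone on the log2 scale, with n = 3 libraries a group, and all passed that test.

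Genes more positive in 1D5 than in both clones are given with the FL value first: VASH1 at 1.73 and 2.09, PPL at 1.98 and 2.03, PRSS23 at 2.03 and 1.98, BATF at 2.30 and 1.92, ANTXR2 at 1.89 and 2.13 and EVI2A at 2.96 and 1.58. Further ones were LURAP1L at 1.72 and 1.55, SPINK4 at 2.00 and 1.52, CSF1 at 3.73 and 1.11, CXCL8 at 1.26 and 1.54, AKR1C1 at 1.91 and 1.44, ISG15 at 1.39 and 1.78, IFIT2 at 2.68 and 1.84 and IFIT3 at 2.21 and 1.74. Genes more negative than in both were PRG2 at -1.43 and -1.39, HBZ at -2.23 and -2.33, CDC42EP1 at -1.11 and -1.08, SLC6A19 at -1.34 and -1.05, ID1 at -1.01 and -0.95, SPIN4 at -0.82 and -0.83, SLC2A14 at -2.31 and -0.81 and GALNT6 at -1.34 and -0.81.

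Against FL alone, among erythroid and cell cycle genes, the values were -4.79 for SELENBP1, -2.71 for PRDX2, -2.22 for PKLR, -3.06 for ALAD, -1.95 for ABCB10, -3.66 for MYL4, -2.56 for ACKR1, -3.57 for AQP3 and -3.60 for CDKN1C. They were also -1.95 for TFRC, -1.71 for E2F2, -2.24 for ALAS2, -3.00 for HBB, -2.42 for AHSP, -2.15 for BPGM, -1.90 for EPOR, -1.41 for KLF1, -2.62 for HIST1H1C and -1.07 for BNIP3L. Positive values were 1.76 for KIT, 0.96 for GATA2, 3.10 for THBS1 and 3.13 for C4A.

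Against 1KI9 alone the values were -2.79 for PSAT1, 1.52 for CDKN1A, 2.15 for NDRG4, 2.41 for TPSB2, 1.86 for CD68, 1.96 for ITGB3, 3.02 for RRAD and 1.27 for TSC22D3. None of the gene values here changed sign over 17 alternatives, or 16 for CDC42EP1.

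Outside the fit, 35 genes were listed at 0 in all 9 expansion libraries and had a deposited value of at least 1 in all 3 day 4 libraries of 1D5. MT4, a metallothionein, was the highest, at scaled values of 22.2, 35.5 and 30.04, and TINAGL1, a matrix protein, followed. A listed 0 can be a failed estimate, so no fold is given.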

How the results depend on the processing

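Depth is unknown, each arm is 1 clone, and medium, day and scaling cannot be told apart, so the call counts describe these libraries. With pseudocount 5, 718 genes were higher and 688 lower by at least 2-fold, in place of 1367 and 1194. On the deposited values the 1D5 response was more positive than FL in 4928 genes and more negative in 1633, and on the sum without globin and mitochondrial genes in 4348 and 1917, in place of 2694 and 3090. Against 1KI9 the more negative count was 480 and 839 on these scalings, in place of 1588. Genes differing from both clones were 500 more positive and 28 more negative on the deposited values, and 389 and 55 on the sum scaling, in place of 250 and 123. The cause was not tested.

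Leaving out each 1D5 library gave 8462 to 8595 called genes in 1D5, 5357 to 5764 against FL, 2374 to 3089 against 1KI9 and 236 to 376 against both, of which 180 to 253 were more positive and 56 to 159 more negative. The lowest counts against both came without expansion replicate 2, and the more negative count was 68 and 63 without day 4 replicates 1 and 3. Fewer samples enter these fits.

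Deviations from group means of same-numbered libraries correlated at 0.0706, 0.0994 and -0.0739. With 3 libraries a group these values cannot tell whether replicate numbers pair the samples. With a replicate block 8783 genes were called in 1D5, 5804 against FL, 3042 against 1KI9 and 322 against both. Not every library correlated best with its own number. Scaling and fit from the 1D5 libraries alone, added after seeing the data, called 8551.

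On ranks within library MT-ND3 (-0.03335), UBE2C (-0.06937) and ITGA2B (-0.159) changed sign, and on the deposited values PSMD4 did (-0.0018, from a called rise of 0.17). The calls of the difference were lost on ranks for AHSP and HBZ against FL and for CSF1 and SPINK4 against 1KI9, and with pseudocount 0.1 for VASH1 and SPINK4 against FL.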

Other observations

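Other gene lists are read beside 39.7% of all tested genes higher and 39.8% lower in 1D5. Of 16 polyadenylated and variant histones 11 were higher and 4 lower at day 4. H1F0, the linker histone of resting cells, measured 0.448, 1.003 and 0.606 in expansion and 6.78, 7.85 and 7.2 at day 4 and rose by 2.31 (SE 0.10, limma adjusted p = 9.4e-13). H2AFZ, a variant abundant in dividing cells, measured 608, 613 and 562 in expansion and 123, 147 and 123 at day 4 and fell by 2.18. Neither overlapped between the groups. HIST1H2AC rose by 2.58. Fatty acid oxidation and actin lists were near those shares. In fatty acid oxidation 9 of 19 were higher and 6 lower, with ACADVL, the very long chain dehydrogenase, and DECR1 up by 1.66 and 1.41 and HADH down by 1.28. The actin list had 9 of 24 higher and 11 lower: CAPG, a capping protein, rose by 3.75, and ACTB, beta actin, fell by 1.03.

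Protein quality genes were mostly lower. Of 31 core proteasome subunits 25 were lower and 1 higher, and of 26 chaperones 22 were lower and 2 higher, with HSPA1B, a stress-induced HSP70, up by 0.77. Amino acid transport had 15 of 20 lower, including SLC38A5 at -2.21 and SLC38A1 at -1.68, while SLC6A9, the glycine transporter used for erythroid heme, rose from 4.41, 4.37 and 8.02 to 24.6, 25.1 and 22.7, a difference of 1.97 (SE 0.24, limma adjusted p = 5.7e-07), or 2.22 without expansion replicate 3 of 1D5. Class I antigen presentation had 7 of 10 higher and 1 lower, and HLA-E rose by 2.60. Immediate early genes had 15 of 19 higher and 2 lower. FOS and DUSP4 rose by 1.93 and 2.23, and EGR2 fell by 1.69.

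Metallothioneins other than MT2A were seen among genes listed at 0 in every expansion library: MT1X had scaled values of 12.6, 16.1 and 15.3 at day 4, and MT1E and MT1G stayed at or below 1.89 and 2.04.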
